A study of Mus musculus with 7 samples.

Results

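Imprinted growth-control genes were examined in mouse hematopoietic stem cells (HSCs), the rare marrow cells that sustain every blood lineage. The set held 10 genes: the growth factor Igf2, its clearance receptor Igf2r, the adaptor Grb10, the G-protein subunit Gnas, the membrane ligand Dlk1, the noncoding RNAs H19 and Meg3, and Ndn, Peg3 and Mest. A member row was any row of the deposited array table whose platform annotation named 1 of these genes and no other gene. The rule found 9 probe sets, 1 for each of 9 genes, among 41155 rows, of which 25335 carried an annotation. H19 had no such row, because the single row that names it also names the microRNA gene Mir675, so no H19 level is given. Meg3, Peg3 and Gnas also had rows shared with other genes, which were not read as these genes.

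The 2 groups compared were C57BL/6J mice aged 8 weeks. The Ahr-KO group (3 arrays) carried a knockout of Ahr, the gene of the aryl hydrocarbon receptor, a ligand-activated transcription factor. The WT group (4 arrays) carried wild-type Ahr. In both groups, marrow was depleted of lineage-positive cells, HSCs were selected by SLAM-family surface markers, and labelled cDNA was made with a kit for very small amounts of total RNA. The labels give neither the removed part of Ahr nor whether an array stands for a mouse or a pool, and p-values therefore reflect array-to-array spread alone, which may be technical.

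An imprinted gene is transcribed mainly from the copy inherited from a particular parent, because DNA methylation set in the egg or sperm marks the copies differently. Many such genes act on growth. Those expressed from the paternal copy, such as Igf2, Dlk1, Mest and Peg3, often promote it or supply the embryo. Those expressed from the maternal copy, such as H19, Igf2r, Meg3 and Grb10 in most tissues, often restrain it. In adult mouse HSCs, the H19-Igf2 and Dlk1-Meg3 loci have been linked to the maintenance of the resting state, through IGF receptor signalling and through noncoding RNAs and microRNAs. These arrays measure total RNA signal and cannot tell the parental copies apart.

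Signal was low for most probe sets on every array. Median intensity was between 16.89 and 20.27 on the Ahr-KO arrays and between 16.95 and 22.13 on the WT arrays. No detection call came with the values, and a background mark was therefore set on each array from 1108 probe sets of olfactory receptors, genes used almost wholly in the nose, at their 95th percentile. The mark was 33.8 to 37.6 in Ahr-KO and 33.9 to 42.8 in WT. The share of annotated probe sets above it was 34.9 to 41.9% in Ahr-KO and 30.7 to 44.9% in WT, lowest on WT replicate 2 and highest on WT replicate 4. The Ahr probe set read 34.1, 137 and 26.4 on Ahr-KO arrays against 31.3, 57.9, 14.9 and 20.5 on WT arrays, which did not separate the labels. Of 12 measured HSC identity genes, between 8 and 10 exceeded the mark on each Ahr-KO array and between 6 and 12 on each WT array. Kit, Hlf, Meis1, Mllt3 and Gfi1b did so on all 7, whereas Slamf1, the CD150 sorting marker, did so on every Ahr-KO array and on WT replicate 4 alone. Mecom, an HSC transcription factor gene, was listed at 0 on WT replicate 2.

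Because AhR binds DNA at a short element with the core GCGTG, the promoter windows of the members whose values separated the genotypes, Igf2r and Peg3, are printed here. Capitals mark GCGTG or its reverse complement CACGC, in RefSeq windows of 300 bases on GRCm38.p6 running from 250 bases before the gene start to 50 after it.
Igf2r, chr17:12769657-12769956, minus strand: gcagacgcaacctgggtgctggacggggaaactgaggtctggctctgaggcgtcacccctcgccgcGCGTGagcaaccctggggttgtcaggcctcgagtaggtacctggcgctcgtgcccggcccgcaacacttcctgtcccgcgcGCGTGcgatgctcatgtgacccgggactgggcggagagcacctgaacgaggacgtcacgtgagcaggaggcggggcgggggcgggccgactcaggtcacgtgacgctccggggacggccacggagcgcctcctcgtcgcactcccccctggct
Peg3, chr7:6730370-6730669, minus strand: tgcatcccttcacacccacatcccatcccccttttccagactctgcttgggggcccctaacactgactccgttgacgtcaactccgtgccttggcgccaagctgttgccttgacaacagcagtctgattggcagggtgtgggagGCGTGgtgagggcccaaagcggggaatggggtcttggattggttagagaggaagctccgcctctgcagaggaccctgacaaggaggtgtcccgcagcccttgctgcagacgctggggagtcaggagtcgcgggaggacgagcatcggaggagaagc

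The Igf2r window held the core 2 times and the Peg3 window 1 time. This core is common: 32.4% of all 32851 promoter windows of that length held it on either strand, as did 7 of the 19 windows of the 9 measured members. The longer element TNGCGTG, which contains the core, was in 5.07% of all windows and in 1 of the 19, a Grb10 window. TGCCGC, the motif bound by the imprint-keeping protein ZFP57, was in 11.6% of all windows and in 5 of the 19, at Mest, Meg3, Igf2 and Grb10. The windows held a median of 14 CpG dinucleotides, against 7 over all windows. Each of these motifs contains a CpG, so the shares over all windows are not a matched background. Igf2r had 34 CpG and Peg3 had 13. Windows of Gnas and of Mest overlap each other, so the 19 are not independent. A match is a description of letters, not a binding site.

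No member differed between Ahr-KO and WT HSCs past a limma p of 0.05 adjusted over the 25335 annotated probe sets, and neither did any other probe set (0% called). The lowest adjusted p was 0.963 among the members and 0.961 over the table. At an unadjusted limma p under 0.05 there were 2 of 9 members, Peg3 higher and Igf2r lower in Ahr-KO, beside 4.21% of all probe sets (1.99% higher and 2.22% lower). The same genes were those with no overlap between the genotypes, a pattern of 5.74% of all probe sets (2.61% higher and 3.13% lower in Ahr-KO). With 9 members, a count of 1 in each direction describes these genes and no more. Over all members, 6 values were higher and 3 lower, and the median log2 difference was 0.25, against -0.03 for the whole table. Differences are Ahr-KO minus WT of log2(intensity + 1). For dim genes their size depends on the added constant. With 16 in place of 1, Igf2 went from 1.43 to 0.48 and Grb10 from -2.60 to -1.01.

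**Figure D1:**
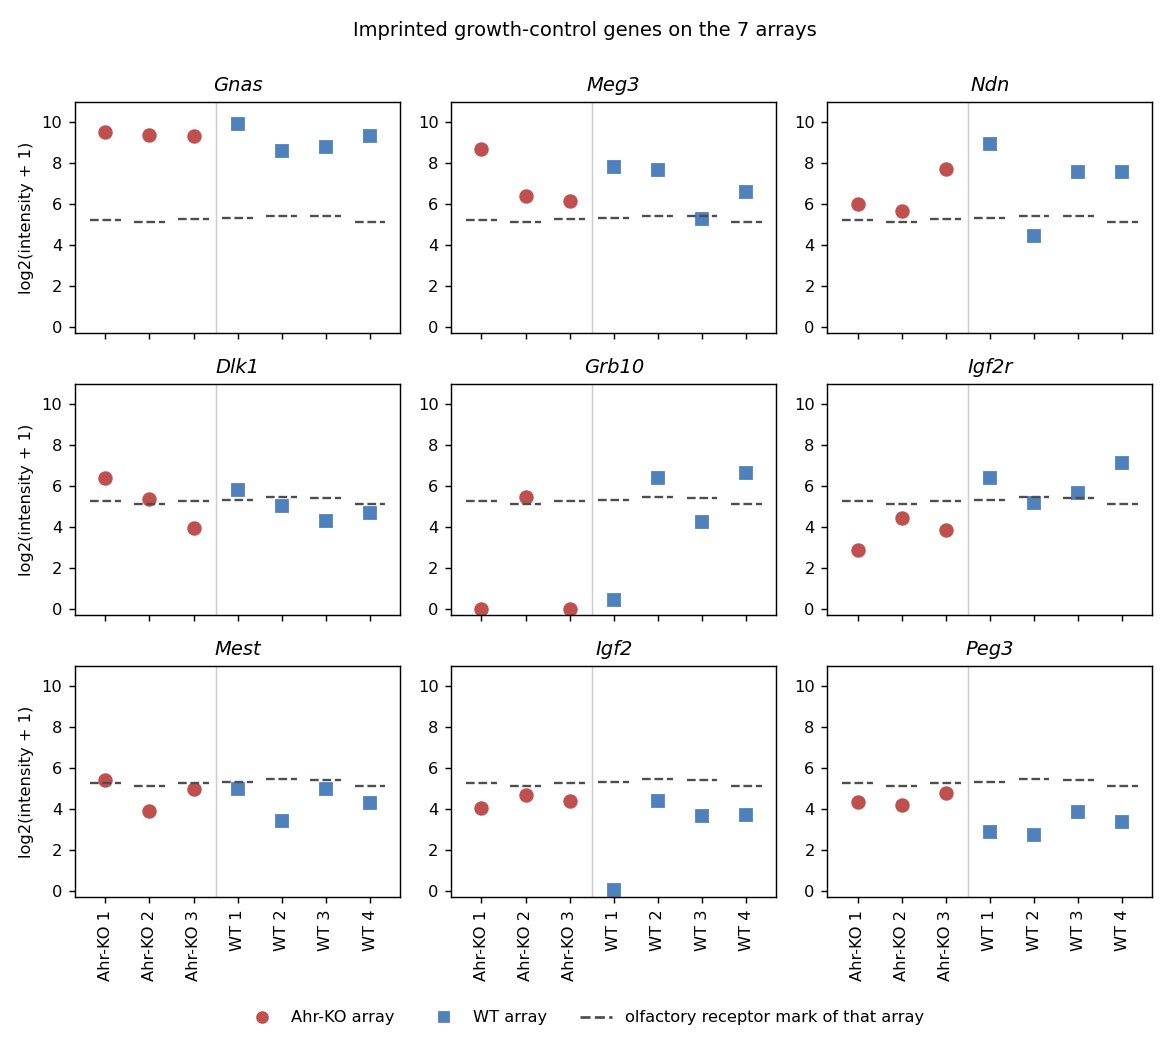
Intensity of the 9 measured members, as log2(intensity + 1), on each of 3 Ahr-KO arrays (circles) and 4 WT arrays (squares); the dashed line is the olfactory receptor mark of that array. Gnas lies above the mark on all 7 arrays, Igf2 and Peg3 lie below it on all 7, and the Igf2r values of Ahr-KO lie below the mark and below every WT value.

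Igf2r had the lowest unadjusted p of the members. Its product, the cation-independent mannose-6-phosphate receptor, carries lysosomal enzymes and removes IGF2 from the cell surface for degradation. It read 6.43, 20.7 and 13.35 on Ahr-KO arrays, against 83.7, 34.8, 49.8 and 138 on WT arrays. All Ahr-KO values were lower than all WT values, and no Ahr-KO array exceeded the background mark, whereas 3 of 4 WT arrays did. The log2 mean was 3.73 ± 0.78 in the Ahr-KO group and 6.09 ± 0.86 in the WT group (SD, n = 3 and n = 4). The log2 difference was -2.36 ± 0.64 (SE, 95% interval -3.83 to -0.89; limma adjusted p = 0.963, or 0.00612 before adjustment). By an exact two-sided permutation test of the log2 means p = 0.0571, the smallest that 3 against 4 arrays allow.

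Since the Ahr-KO signal lay under the mark, the size of that difference is given as a bound on the group means. Setting each Ahr-KO array at its mark, the Igf2r mean was at least 1.83-fold lower in Ahr-KO (means of log2 values). The limma adjusted p of 0.963 belongs to the measured difference, and no test was run on the bound. That bound takes no account of the spread between arrays. WT replicate 4, at 138, raised it, and WT replicate 2, at 34.8, lay under its own mark of 42.8. With a pseudocount of 16 the log2 difference was -1.55. In sorted-cell RNA of this kind, fewer cells of a type and less RNA per cell cannot be told apart. Igf2r was highest on WT replicate 4, which also had the largest share of probe sets above the mark and the highest summed intensity of 12 marrow stromal markers. That sum was 347 to 969 in Ahr-KO and 325 to 1684 in WT, with 2 to 3 and 2 to 4 of the 12 above the mark, none at 0. The other arrays did not follow that order. The sum was lowest, at 325, on WT replicate 1, where Igf2r was second highest. It was next highest on Ahr-KO replicates 2 and 1, at 969 and 862, where Igf2r read 20.7 and 6.43. Among 12 HSC identity genes, the log2 difference was below 0 for 9, with a median of -0.65, and their summed intensity was 2630 to 3940 in Ahr-KO and 3569 to 5200 in WT. The part of signal breadth, stromal RNA or HSC marker level in the Igf2r values was not tested. Without WT replicate 4, the log2 difference was -2.02.

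The paternal copy of Igf2r is silenced in mouse by Airn, a noncoding RNA transcribed antisense to it. Airn, named here after its values were seen, read 1.41, 2.73 and 11.1 on Ahr-KO arrays against 72.1, 0.67, 13.35 and 10.2 on WT arrays. It exceeded the mark on WT replicate 1 alone, so a genotype difference was not detectable. M6pr, the cation-dependent mannose-6-phosphate receptor that shares the enzyme-sorting role but does not bind IGF2, had higher means in Ahr-KO. M6pr read 402, 175 and 509 on Ahr-KO arrays against 137, 109, 10.9 and 227 on WT arrays. These overlapped, and the log2 difference was 2.04 ± 1.02 (limma SE; adjusted p = 0.963), but 1.12 without WT replicate 3. Without WT replicate 4 it was 2.54 and passed an unadjusted p of 0.05.

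Igf2, the growth factor that Igf2r removes, gave no signal above background on any array. It read 15.8, 24.6 and 20.3 on Ahr-KO arrays against 0.04, 19.99, 11.6 and 12.2 on WT arrays. The groups overlapped through WT replicate 2, and WT replicate 1 was near 0. The log2 difference of 1.43 ± 1.01 (limma SE; adjusted p = 0.963) was 0.46 without WT replicate 1 and 0.48 with a pseudocount of 16. At this signal neither presence of Igf2 RNA nor a genotype difference was detectable.

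Grb10 encodes an adaptor that binds the activated insulin and IGF receptors and dampens their signal. Its probe set was listed at 0, 43.8 and 0 on Ahr-KO arrays and at 0.37, 82.8, 17.8 and 99.2 on WT arrays. The groups overlapped: Ahr-KO replicate 2 and 2 WT arrays exceeded the mark. The lowest arrays were Ahr-KO replicates 1 and 3, followed closely by WT replicate 1. The log2 difference was -2.60 ± 1.86 (SE, 95% interval -6.90 to 1.70; limma adjusted p = 0.963), the widest interval of the members. Leaving out Ahr-KO replicate 2 gave -4.43, leaving out WT replicate 1 gave -3.93, leaving out either other Ahr-KO array gave -1.69, and a pseudocount of 16 gave -1.01. An exact 0 in such a table can be a failed estimate.

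Gnas, which encodes the stimulatory G-protein alpha subunit that couples receptors to cyclic AMP, was the member above background on all 7 arrays. It read 736, 660 and 647 on Ahr-KO arrays against 972, 382, 451 and 642 on WT arrays. The Ahr-KO values lay inside the WT range. The mean was 681 ± 48.2 in the Ahr-KO group and 612 ± 264 in the WT group (SD, n = 3 and n = 4), and the log2 difference was 0.25 ± 0.48 (SE, 95% interval -0.87 to 1.36; limma adjusted p = 0.973). Its residual SD was 0.47 log2 units, against a median of 0.93 over all annotated probe sets. The locus has several promoters with opposite imprints, and the transcripts covered by the probe set are not known here.

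Meg3 and Dlk1 lie in the same imprinted domain and are expressed from opposite parental copies. Meg3, a maternally expressed noncoding RNA, read 420, 82.6 and 70.1 on Ahr-KO arrays against 226, 202, 37.6 and 95.7 on WT arrays. It exceeded the mark on every array except WT replicate 3. The groups overlapped, and the log2 difference was 0.25 ± 0.87 (limma SE; adjusted p = 0.986), with the highest single value on Ahr-KO replicate 1. Without that array the difference was -0.57, and without WT replicate 3 it was -0.28, so it had no stable direction.

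Dlk1, the paternally expressed membrane ligand of the same domain, read 83.2, 40.4 and 14.8 on Ahr-KO arrays against 55.7, 32.3, 18.7 and 24.8 on WT arrays. It exceeded the mark on 2 Ahr-KO arrays and 1 WT array. It differed by 0.28 ± 0.68 on the log2 scale (limma SE; adjusted p = 0.978), and -0.29 without Ahr-KO replicate 1. Both genes were highest on Ahr-KO replicate 1 and next highest on WT replicate 1. Mest shared that order, and the remaining arrays were ordered differently in each gene.

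Ndn, which encodes necdin, a growth-restraining protein linked in mouse to HSC quiescence, was above background on 6 of 7 arrays. Ndn read 64.7, 49.7 and 211 on Ahr-KO arrays against 499, 20.9, 191 and 193 on WT arrays. WT replicate 2 was the lowest array and WT replicate 1 the highest, so the WT group spanned all Ahr-KO values. Ndn differed by -0.67 ± 1.07 log2 units (SE, 95% interval -3.15 to 1.80; limma adjusted p = 0.968). It ranged from -1.57 without WT replicate 2 to -0.07 without WT replicate 1.

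Peg3, a paternally expressed zinc finger gene linked to growth and maternal behaviour, was the other member whose groups did not overlap. It read 19.0, 17.2 and 26.4 on Ahr-KO arrays against 6.40, 5.65, 13.3 and 9.34 on WT arrays. Every value lay under the background mark of its array, so no fold is given. The log2 difference was 1.22 ± 0.47 (SE, 95% interval 0.13 to 2.31; limma adjusted p = 0.963, or 0.0323 before adjustment; exact permutation p = 0.0571), and 0.58 with a pseudocount of 16. The unadjusted p missed 0.05 without Ahr-KO replicate 1 or 3 or without WT replicate 1, 2 or 4, where it lay between 0.0512 and 0.0983.

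Mest, a paternally expressed gene for a hydrolase-like protein of the endoplasmic reticulum, read 42.0, 13.8 and 30.25 on Ahr-KO arrays against 30.9, 9.59, 30.6 and 18.3 on WT arrays. Only Ahr-KO replicate 1 exceeded the mark. The groups overlapped, with a log2 difference of 0.35 ± 0.61 (limma SE; adjusted p = 0.970), and 0.01 without either Ahr-KO replicate 1 or WT replicate 2.

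**Figure D2:**
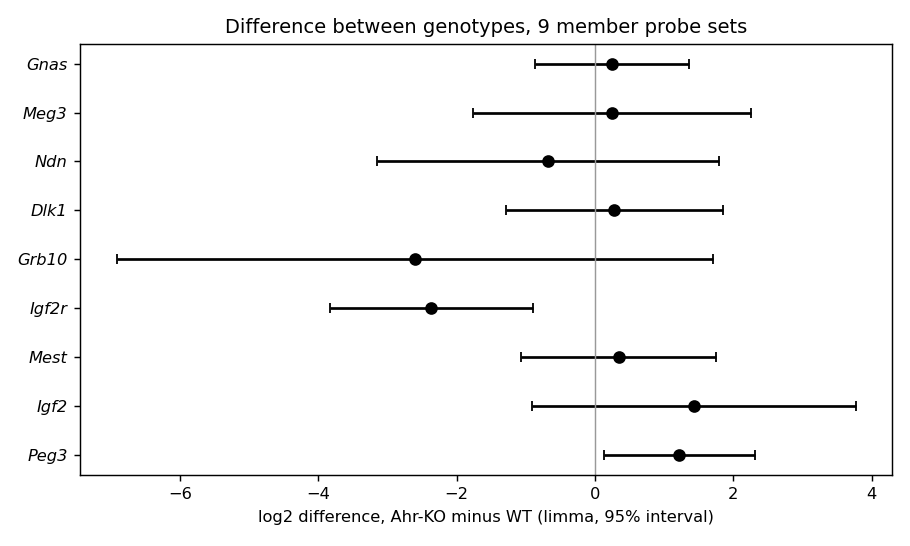
Log2 difference of each member, Ahr-KO minus WT, with the 95% interval from limma (3 Ahr-KO and 4 WT arrays). The intervals of Igf2r and Peg3 leave out 0 before adjustment, that of Gnas is among the narrowest, and that of Grb10 runs from -6.90 to 1.70.

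For the members above background on at least 4 arrays, the genes closest in their course over the 7 arrays were found among probe sets with 1 symbol above the mark on all 7. Log2 values were centred on the median of each array and then on each probe set's own median, so that level did not enter, and the mean absolute distance was taken; the second centring was chosen after seeing the data. The nearest to Gnas were Uqcrb (0.113), a respiratory complex III subunit gene, and Atp5e (0.124), an ATP synthase subunit gene, against a median distance of 0.597 over 3242 probe sets. For Meg3 they were Ubl3 (0.441) and Cfap161 (0.442), against a median of 1.08 over 3243 probe sets. For Ndn they were Ebi3 (0.508) and Chchd6 (0.517), against a median of 1.31. These are descriptions, since the candidates are many and all values share the same arrays.

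MicroRNAs lie within or beside several member genes, and their mature sequences are shown to identify what the host loci encode. Bases 2 to 8, the seed that pairs with target RNAs, are in capitals, from RefSeq on GRCm38.p6.
miR-665-5p (chr12:109586331-109586356, plus strand): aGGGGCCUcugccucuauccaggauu
miR-665-3p (chr12:109586368-109586387, plus strand): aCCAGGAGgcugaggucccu
miR-483-5p (chr7:142654968-142654989, minus strand): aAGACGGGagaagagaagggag
miR-483-3p (chr7:142654932-142654952, minus strand): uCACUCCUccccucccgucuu
miR-335-5p (chr6:30741314-30741336, plus strand): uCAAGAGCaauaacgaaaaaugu
miR-675-5p (chr7:142577112-142577133, minus strand): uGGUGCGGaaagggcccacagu
None of these shares its seed with another of those shown. In RefSeq, Mir675 lies within H19, Mir483 within Igf2, Mir335 within Mest, and Mir665 within the span of Rtl1 in the Dlk1-Meg3 domain.

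Of 24 such microRNA genes, 14 had a probe set of their own; the other 10, Mir675 among them, were annotated together with other genes. Mir665 and Mir483 exceeded the mark on all 7 arrays, and 11 of the 14 on none. Mir665 read 1101, 822 and 866 on Ahr-KO arrays against 916, 1396, 1876 and 1290 on WT arrays, groups that overlapped through WT replicate 1. The difference on the log2 scale was -0.52 ± 0.45 (limma SE; adjusted p = 0.963). Mir483 read 75.3, 81.8 and 85.4 on Ahr-KO arrays against 141, 66.4, 127 and 67.2 on WT arrays. Those groups overlapped too, with a log2 difference of -0.23 ± 0.48 (limma SE; adjusted p = 0.975). Whether these probe sets read the mature microRNA, its precursor or the host transcript was not tested.

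Most other microRNA probe sets were dim. Mir335, within Mest, read 15.3, 12.5 and 19.1 on Ahr-KO arrays against 10.02, 14.09, 18.4 and 8.93 on WT arrays, all below the mark. Mir540, also in the span of Rtl1, did not overlap between groups, at 11.9, 11.35 and 7.52 on Ahr-KO arrays and 14.3, 14.5, 17.3 and 18.95 on WT arrays, again below the mark. Among the 14, Mir540 alone did not overlap (lower in Ahr-KO, beside 3.13% of all probe sets). On the log2 scale it differed by -0.63 ± 0.42 (limma SE; adjusted p = 0.963). Mir337 and Mir379 were below the mark on every array, with log2 differences of 0.54 and 0.78 (limma adjusted p = 0.966 and 0.963). Single arrays set both values: Mir337 was 0.02 without WT replicate 3 and 1.07 without WT replicate 1, and Mir379 was 0.10 without WT replicate 1 and 1.35 without WT replicate 2. Of the 14, 9 were higher and 5 lower, none at an unadjusted p under 0.05, with a median log2 difference of 0.16.

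Other imprinted genes divided evenly. The list held 61 genes, several of them imprinted only in placenta or brain, of which 51 were measured, 25 higher and 26 lower in Ahr-KO, with a median log2 difference of -0.06. Of these, 3 exceeded the mark on all 7 arrays (Cd81, Ube3a and Tssc4) and 16 on none. None passed the adjusted threshold. At an unadjusted p under 0.05 there was 1 higher gene (1.99% of all probe sets) and 1 lower gene (2.22%). These counts moved with single arrays. The higher count was 0 without Ahr-KO replicate 2 or WT replicate 1, 3 without Ahr-KO replicate 3, and 2 without WT replicate 4. The lower count was 2 without any one Ahr-KO array or WT replicate 1, and 4 without WT replicate 2.

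The higher gene was Phlda2, a maternally expressed growth restrainer of the placenta. Phlda2 read 236, 356 and 64.3 on Ahr-KO arrays against 15.1, 0.03, 24.3 and 80.9 on WT arrays. It exceeded the mark on all 3 Ahr-KO arrays and on WT replicate 4, which was above Ahr-KO replicate 3. Phlda2 differed by 3.70 ± 1.41 log2 units (limma SE; adjusted p = 0.963, or 0.0308 before adjustment; exact permutation p = 0.114). It was 2.46 without WT replicate 2, where that gene was near 0, and the leave-one-out range was 2.46 to 4.56. Its unadjusted p missed 0.05 without Ahr-KO replicate 1, Ahr-KO replicate 2 or WT replicate 1, where it lay between 0.0528 and 0.0968.

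The lower gene was Gab1, a docking adaptor of growth factor receptors that is imprinted in mouse placenta. Gab1 read 8.42, 11.25 and 5.83 on Ahr-KO arrays against 34.25, 37.0, 20.5 and 66.0 on WT arrays. The groups did not overlap, but WT replicate 4 alone exceeded the mark. Gab1 differed by -2.01 ± 0.53 log2 units (limma SE; adjusted p = 0.963, or 0.00534 before adjustment; exact permutation p = 0.0571), and -1.12 with a pseudocount of 16. No Ahr-KO array exceeded the mark, and with those arrays set at their marks Gab1 was at least 1.0-fold lower in Ahr-KO, which sets no size. Ascl2, a placental transcription factor gene, was dim throughout, at 5.07, 6.49 and 6.37 on Ahr-KO arrays and 10.1, 32.2, 11.5 and 12.75 on WT arrays. Sfmbt2, a Polycomb-group gene, was also below the mark on every array, with a log2 difference of -1.42 ± 0.62 (limma SE; adjusted p = 0.963), and -0.80 without Ahr-KO replicate 2. Groups did not overlap for 4 of the 51: Peg12 higher (2.61% of all probe sets), and Ascl2, Gab1 and Th lower (3.13%). Peg12 and Th were named after their values were seen.

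The insulin and IGF genes around Igf2 gave a similar picture. Of 24 listed, 21 were measured, 11 higher and 10 lower, with a median log2 difference of 0.04 and none at an unadjusted p under 0.05. That count of 0 did not hold throughout: 2 were lower without Ahr-KO replicate 2, 1 was higher without Ahr-KO replicate 3, 1 was higher and 1 lower without WT replicate 3, 2 were higher and 1 lower without WT replicate 4, and 1 was lower with a pseudocount of 16. Igfbp3, an IGF-binding protein gene, read 7.45, 41.0 and 23.05 on Ahr-KO arrays against 45.35, 46.7, 74.6 and 44.1 on WT arrays. The groups did not overlap and every WT array exceeded the mark, as did Ahr-KO replicate 2. On the log2 scale it differed by -1.36 ± 0.62 (limma SE; adjusted p = 0.963), and -0.72 without Ahr-KO replicate 1. Igf1, named after its values were seen, was the other IGF gene without overlap (2 of 21, both lower, beside 3.13% of all probe sets), at 47.6 to 59.45 in Ahr-KO and 63.2 to 163 in WT, above the mark on all 7 arrays. The difference on the log2 scale was -0.63 ± 0.50 (limma SE; adjusted p = 0.963).

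Igfbp7, a related binding protein gene, read 215, 255 and 157 on Ahr-KO arrays against 19.2, 13.8, 195 and 151 on WT arrays. Its WT values fell into a low and a high pair of arrays, and the groups overlapped. The log2 difference was 1.91 ± 0.9998 (limma SE; adjusted p = 0.963), and 1.28 without WT replicate 2. Grb14, an adaptor related to Grb10, was below the mark on every array, with a log2 difference of -1.14 ± 0.59 (limma SE; adjusted p = 0.963), and -0.69 without Ahr-KO replicate 3.

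The list of imprint regulators had 24 entries, all measured. It also held the DNA demethylation genes Tet1, Tet2 and Tet3 and broader regulators such as Ezh2, Lin28a, Lin28b and Hmga2. In Ahr-KO, 12 of the 24 were higher and 12 lower, with a median log2 difference of -0.02 and none at an unadjusted p under 0.05. With single arrays left out, 1 was higher (Tet3) and 1 lower (Zfp445) without Ahr-KO replicate 1, 1 was higher (Tet1) without Ahr-KO replicate 3, and 1 was lower (Zfp445) without WT replicate 3. Zfp445, a zinc finger gene that protects imprints, read 127, 52.9 and 39.4 on Ahr-KO arrays against 179, 257, 60.9 and 248 on WT arrays. It exceeded the mark on every array, the groups overlapped, and the log2 difference was -1.32 ± 0.69 (limma SE; adjusted p = 0.963). Tet1 and Tet3 encode enzymes of DNA demethylation. Tet1 differed by 1.40 ± 0.84 log2 units (SE), by 0.87 without Ahr-KO replicate 1 and by 2.29 without Ahr-KO replicate 3. Tet3 read 21.8, 191 and 49.1 on Ahr-KO arrays against 19.6, 26.5, 26.7 and 17.8 on WT arrays, and the groups overlapped. It exceeded the mark on 2 Ahr-KO arrays and on no WT array. Measured log2 means were 5.91 in the Ahr-KO group and 4.54 in the WT group. With the WT arrays set at their marks, the Ahr-KO mean of log2 values was 1.49-fold higher. That value is a bound on these means only, and Ahr-KO replicate 2 raised it. The Tet3 log2 difference as measured was 1.37 ± 0.73 (SE), and 0.54 without Ahr-KO replicate 2. Uhrf1, which recruits the maintenance methyltransferase, differed by 1.18 ± 0.83 (SE), and by 0.39 without Ahr-KO replicate 2. Tet1, Tet3 and Uhrf1 each had a limma adjusted p of 0.963.

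**Figure D3:**
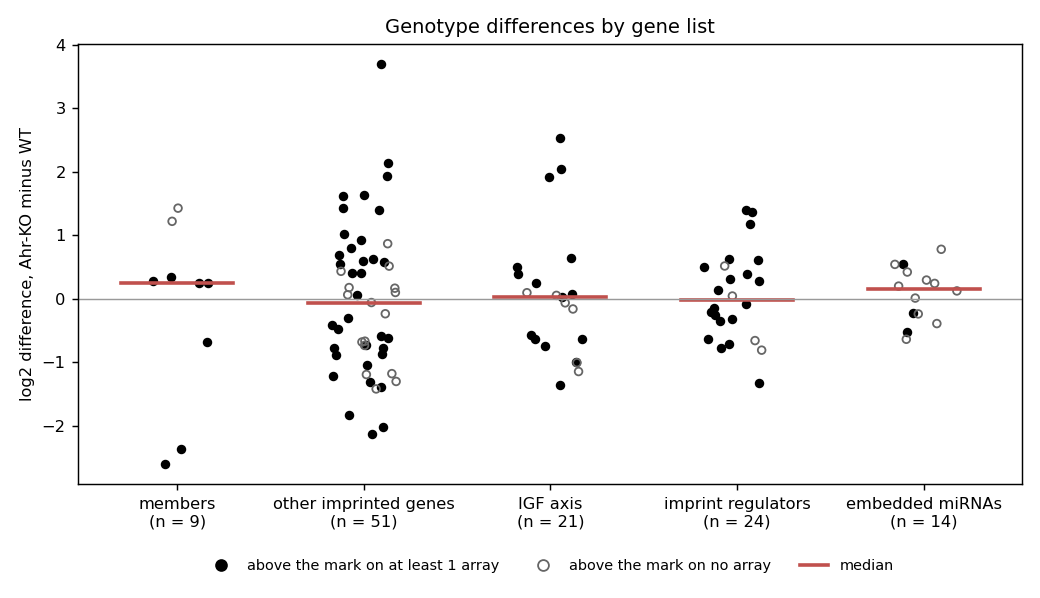
Log2 difference, Ahr-KO minus WT, of each measured gene in the members and the 4 related lists; filled points exceeded the background mark on at least 1 array, open points on none, and red lines are medians. The medians run from -0.06 to 0.25, and each list has values on both sides of 0.

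Genes listed as markers of other cells were uneven between arrays in both genotypes. Whether their signal came from other cells or from the HSCs was not tested. The summed intensity of 12 granulocyte and monocyte markers was 6393 to 18357 in Ahr-KO and 2235 to 16767 in WT, with 7 to 10 and 6 to 10 of them above the mark. Their log2 difference was above 0 for 11 of the 12, with a median of 1.02. For 8 endothelial markers the sum was 974 to 1487 in Ahr-KO and 548 to 1475 in WT. Of these, 3 (Tie1, Emcn and Plvap) exceeded the mark on all 7 arrays. None of the 7 marker lists had sums that separated the genotypes, and their part in the members' values was not tested.

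**Figure D4:**
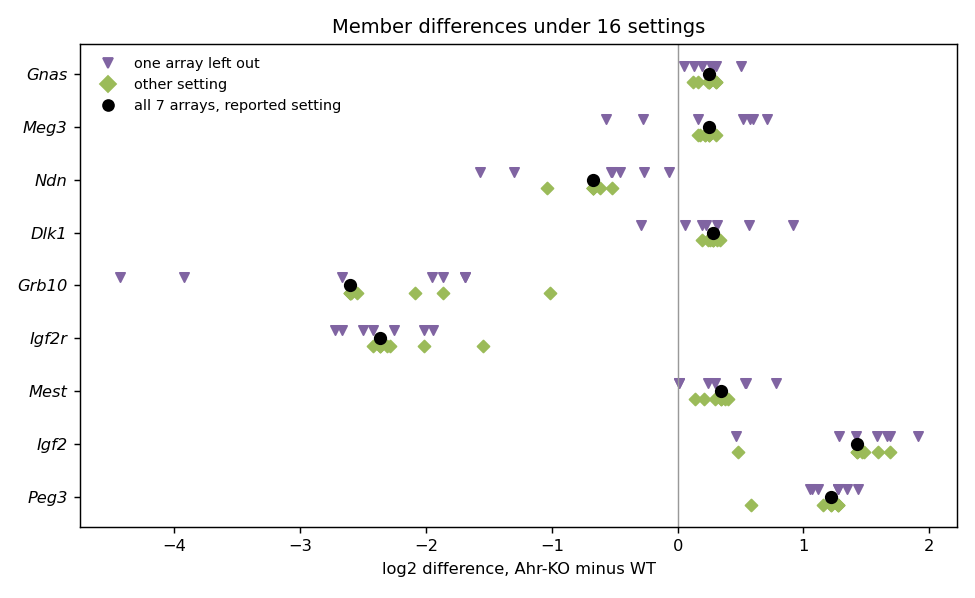
Log2 difference of each member, Ahr-KO minus WT, with all 7 arrays (black), with 1 array left out (triangles) and under other settings (diamonds). Igf2r, Grb10 and Ndn stay below 0 and Igf2, Peg3, Gnas and Mest above 0 throughout, while points of Meg3 and Dlk1 fall on both sides of 0.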

How the data were processed

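RNA of HSCs from 3 Ahr-KO and 4 WT samples was hybridised to 1 array each. The authors deposited 1 table of intensity values on a linear scale, made with Affymetrix Expression Console per the submitters' processing notes; how probes were summarised and normalized, and the array's build, are not known here. Of 41155 rows, the platform annotation named 1 gene for 23521 and several for 1814, and 15820 were unnamed here. Intensities were tested as log2(intensity + 1) with limma 3.58.1 (R 4.3.3; lmFit and eBayes, genotype only), with Benjamini-Hochberg adjustment over the 25335 annotated probe sets. The code was tested on simulated data. No detection p-values came with the table, and the number of arrays limits the precision.

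Named genes were all members, the 4 genes of lowest unadjusted p in each list, and the 2 nearest to each member above the mark on at least 4 arrays. The planned distance centred arrays only and so ranked probe sets mainly by level; it was replaced, after seeing the data, by one that also centres each probe set. A listed gene was read from its brightest probe set with 1 symbol. The members and lists were chosen with earlier results of these data known. Sequences came from RefSeq tables, which held no H19 promoter window. Alternatives were quantile normalization, median centring, a pseudocount of 16, a filter on dim probe sets, all rows, a trended robust prior, array weights, a replicate block, and each array left out.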

Additional observations from a re-analysis of the deposited data

Results flagged for a closer look

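Of 25 member and listed probe sets examined in the WT group of 4, 2 had an array that stood apart from the rest; the Ahr-KO group of 3 was too small to examine. For Igf2, WT replicate 1 (intensity 0.04) was separated from the nearest WT array by 0.83 of the group's log2 range, and the other WT arrays read 11.6 to 19.99. For Igfbp3, WT replicate 3 (intensity 74.6) was separated by 0.888 of the range, and the other WT arrays read 44.1 to 46.7. The cutoff flags about 1 in 20 groups of independent, normally distributed values. These 25 share the same arrays, and those from the lists were picked by low p, so the count of 2 is a description only.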

How the results depend on the processing

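No member passed the adjusted threshold in any of the 15 alternatives; the lowest adjusted p among members was 0.963 with all arrays and 0.79 to 0.996 across the alternatives. The number of members at an unadjusted limma p under 0.05 was 2, and 1 after the filter on dim probe sets, which removed Peg3, Igf2 and Mest and so tested 6 members. It was 1 with the replicate block, a fit that drops WT replicate 4, where Igf2r (-2.02) passed and Peg3 (1.28) did not. With single arrays left out it was 1 to 3: 1 without Ahr-KO replicate 1 or 3 or WT replicate 2 or 4, and 3 without Ahr-KO replicate 2, where Grb10 was added. Without WT replicate 1 it was again 2, but of Igf2r and Grb10, since Peg3 missed the threshold. Deviations from the group means over all annotated probe sets correlated at 0.0227, -0.0646 and 0.0101 between Ahr-KO and WT arrays of the same number. Arrays of different numbers gave -0.0838 to 0.123. Whether arrays of the same number were prepared together was not tested. Of 132 member differences under alternatives, 129 kept their direction. Those that reversed were Meg3 (-0.57 without Ahr-KO replicate 1 and -0.28 without WT replicate 3) and Dlk1 (-0.29 without Ahr-KO replicate 1); the cause was not tested. Leaving out single arrays gave -0.57 to 0.71 for Meg3 and -0.29 to 0.92 for Dlk1. Igf2r stayed between -2.72 and -1.55. Signal over background limits Igf2, Peg3 and Mest, and the Igf2r and Grb10 sizes, most.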

Other observations

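Rows annotated with a member and another gene were read as neither. The row of H19 and Mir675 read 3.89, 22.5 and 48.2 on Ahr-KO arrays against 50.7, 86.7, 29.3 and 30.1 on WT arrays. These values overlapped, exceeded the mark on 1 Ahr-KO array and 2 WT arrays, and had a log2 difference of -1.35 ± 0.84 (limma SE; adjusted p = 0.963). The row of Meg3 and Mir770 read 4.96, 29.9 and 22.02 on Ahr-KO arrays against 4.06, 11.7, 72.2 and 134 on WT arrays, with a log2 difference of -0.80. The row of Meg3 with Mir1906-1 and Mir1906-2 had a log2 difference of -0.05, that of Peg3 and Peg3os 0.14, and that of Gnas and Gnasas1 -0.56, all with overlapping groups. For the shared Meg3 rows the limma SEs were 1.21 and 0.96, each larger than the size of its difference (adjusted p = 0.968 and 0.996). With such SEs, their signs were not read against that of the Meg3 probe set of its own.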
